A study of Mus musculus with 6 samples.

Results

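The genes described here are 8 members of the Hedgehog pathway, chosen by name with earlier results of these data known. They are the ligand Shh, its receptor Ptch1, its antagonist Hhip, its coreceptor Gas1, the transducer Smo and the transcription factors Gli1, Gli2 and Gli3. All 8 were among the 18194 genes with a probe set of their own on the array, and they were covered by 21 of its 45101 probe sets. Gene expression was measured with 1 Affymetrix 3' expression array per sample in adult mouse lung cells sorted as positive for Lyz2 and EpCAM (3 arrays), named alveolar type II cells in the series, and in cells of fetal lungs, sorted at embryonic day 18 as positive for Muc1 and Pdpn (3 arrays, E18), which the series calls bipotent progenitors. The labels name no allele, strain or treatment for either group, the age of the adults and the number of animals behind a sample were not given in the sources used here, and age and sorted population differed together. The comparison asks how Hedgehog gene expression in the adult cells differed from that in the fetal cells. Each difference is the adult minus the E18 mean log2 signal, and a negative one is lower in the adult arrays.

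Hedgehog ligands bind the membrane protein Ptch1, which otherwise holds Smo inactive. Active Smo passes the signal to the Gli factors, of which Gli2 is mainly an activator, Gli3 mainly a repressor, and Gli1 an activator that is itself a target gene. Ptch1 and Hhip are targets too, and both proteins bind the ligand and so limit the signal. In the developing mouse lung Shh is made by the epithelium and received mainly by the surrounding mesenchyme, where Ptch1, Hhip and the Gli genes are expressed.

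The promoters of the response genes are shown because Gli factors bind DNA at a 9-base motif, GACCACCCA. The RefSeq promoter table of the mouse build GRCm38.p6 held 6 of the 8 genes, all but Shh and Gli1, and the 250 bases before each start site were read. The receptor gene, the antagonist gene and a factor gene with a partial match are printed 5′ to 3′ on the strand of the gene, with each CpG dinucleotide in capitals.
Ptch1: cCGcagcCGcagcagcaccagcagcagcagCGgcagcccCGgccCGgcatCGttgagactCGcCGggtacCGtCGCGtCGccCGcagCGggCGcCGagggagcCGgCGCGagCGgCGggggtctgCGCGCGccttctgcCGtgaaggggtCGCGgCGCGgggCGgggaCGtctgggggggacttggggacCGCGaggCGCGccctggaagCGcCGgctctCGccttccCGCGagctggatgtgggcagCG
Hhip: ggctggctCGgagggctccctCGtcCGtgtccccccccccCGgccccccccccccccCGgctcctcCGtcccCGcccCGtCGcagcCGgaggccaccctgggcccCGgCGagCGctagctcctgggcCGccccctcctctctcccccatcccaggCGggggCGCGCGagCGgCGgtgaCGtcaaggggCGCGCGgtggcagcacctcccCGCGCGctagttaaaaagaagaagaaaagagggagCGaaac
Gli2: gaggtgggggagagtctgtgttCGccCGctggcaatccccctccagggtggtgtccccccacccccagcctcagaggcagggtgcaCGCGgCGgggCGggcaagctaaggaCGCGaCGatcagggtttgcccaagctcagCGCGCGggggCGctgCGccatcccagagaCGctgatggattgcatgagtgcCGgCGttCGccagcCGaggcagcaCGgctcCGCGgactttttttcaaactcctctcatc
The Ptch1 stretch lies on the minus strand at chr13:63565736-63565985, that of Hhip on the minus strand at chr8:80058009-80058258 and that of Gli2 on the minus strand at chr1:119053620-119053869. The 9-base motif, searched on both strands, was in 0 of the 6 stretches and in 0.225% of 32851 promoters of the same length. Its 7-base core ACCACCC, contained in the longer motif, was in 3.92% of all promoters and, of the 6, in Gli2 alone, on the opposite strand and beginning 205 bases before the start, where it is shown in capitals as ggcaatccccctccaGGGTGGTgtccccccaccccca. All 6 stretches were above the median of 6 CpG dinucleotides over all promoters, holding 10 to 41 with a median of 25. The 90th percentile over all promoters was 25, and 3 of the 6 reached it: Ptch1 with 41, Gli3 with 34 and Hhip with 28. Gas1 had 10 and Smo 15.

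Signals of the arrays had been scaled by the authors, and the 40th percentile of all probe sets on an array, a log2 signal of 5.40 to 6.10, is used as its floor. It is a rank among probe sets, and background itself was not measured. Markers were read to check the labels. The 7 type II cell markers on the array had summed signals of 43395 to 59565 in the adult arrays and 50770 to 60407 in the E18 arrays, and these ranges overlapped. The sums rested largely on few genes. Sftpc gave 23164 to 26115 in the adult and 15259 to 18434 in the E18 arrays, and Lyz2 gave 2248 to 2775 and 16817 to 19774. Single sort genes differed: Lyz2, the lysozyme gene the adult cells were sorted for, had a mean log2 signal of 11.28 ± 0.15 in adult and 14.15 ± 0.12 in E18 arrays and was called lower (-2.86, limma adjusted p = 0.00302), although only the label of the adult cells names it. Epcam, the other adult sort gene, stood at 7.85, 8.50 and 10.68 in adult replicates 1, 2 and 3, and at 10.69, 11.31 and 9.26 in E18 replicates 1, 2 and 3 (-1.41, limma adjusted p = 0.359). Of the E18 sort genes, Pdpn was called lower (-2.27, limma adjusted p = 0.00923) and Muc1 was not called (-2.07, limma adjusted p = 0.206). Pdpn stood at 9.80, 9.38 and 9.88 in the adult and 11.65, 12.14 and 12.08 in the E18 arrays. Muc1 stood at 7.92, 9.14 and 11.55 in the adult and 11.77, 11.94 and 11.10 in the E18 arrays. The 7 type I cell markers had summed signals of 13780 to 19795 in the adult arrays and 55904 to 74050 in the E18 arrays. The 12 mesenchymal markers had summed signals of 2361 to 14875 in the adult arrays and 39482 to 66539 in the E18 arrays. Of the 12, 0 were under the floor on all E18 arrays, the arrays of cells sorted for Muc1 and Pdpn. The 10 epithelial markers had summed signals of 4238, 4629 and 51169 in adult replicates 1, 2 and 3, and 26893 to 33840 in the E18 arrays. The 8 leukocyte markers had summed signals of 66388, 56752 and 27112 in adult replicates 1, 2 and 3, and 13643 to 25776 in the E18 arrays. Adult replicates 1 and 2 were thus low in epithelial and high in leukocyte markers relative to adult replicate 3. The adult arrays were the less alike, with correlations of 0.777 to 0.913 across genes, against 0.921 to 0.983 among E18 arrays. The pair at 0.983 was E18 replicates 1 and 2, and counts with these averaged are given at the end. Poly-A spike-in controls had median log2 signals of 14.38 in adult replicate 3 and 13.97 in E18 replicate 3, against 6.24 to 9.53 in the other arrays, so values are also given for replicates 1 and 2 and for replicate 3 apart, although no label names a batch.

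By the brightest probe set of each gene, all 8 Hedgehog genes had lower signals in each adult array than in any E18 array. Of the 8, 5 fell in the test: Shh, Ptch1, Hhip, Gli2 and Gas1. Smo, Gli1 and Gli3 did not pass, and 0 genes were higher. The test was limma on log2 signals with Benjamini-Hochberg adjustment over the 13336 genes that reached the floor on at least 3 arrays, and a gene is called at an adjusted p under 0.05. All 8 genes were at or above the floor on all 3 E18 arrays and so passed this filter through the E18 group alone, whatever their adult level. Of all genes tested, 4.57% were called lower and 1.41% higher, and 5.06% of genes at or above the floor on all E18 arrays were called lower. Arrays of the groups did not overlap, with the adult arrays lower, for 18.8% of genes tested. Because the 8 genes were chosen with earlier results of these data known, these shares are background and no test of the 8. The 8 genes had differences of -6.71 to -1.50, with a median of -2.95, against a median of -0.17 over all genes tested. Quantile normalization moved that overall median to -0.05 and centring each array on its median moved it to -0.02. Relative to it the 8 differences were -6.54 to -1.33 as deposited and -6.59 to -1.17 after quantile normalization. After centring they were again -6.54 to -1.33, by construction, because centring shifts the differences of all genes by the same amount. In RNA from sorted populations, fewer cells that express a gene and less RNA per cell cannot be told apart. The count of 5 depended on single arrays: leaving out adult replicate 3 gave 8, adult replicate 1 gave 4, adult replicate 2 and E18 replicate 3 each gave 2, and E18 replicates 1 and 2 each gave 1. Hhip was called in every one of these fits.

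**Figure D1:**
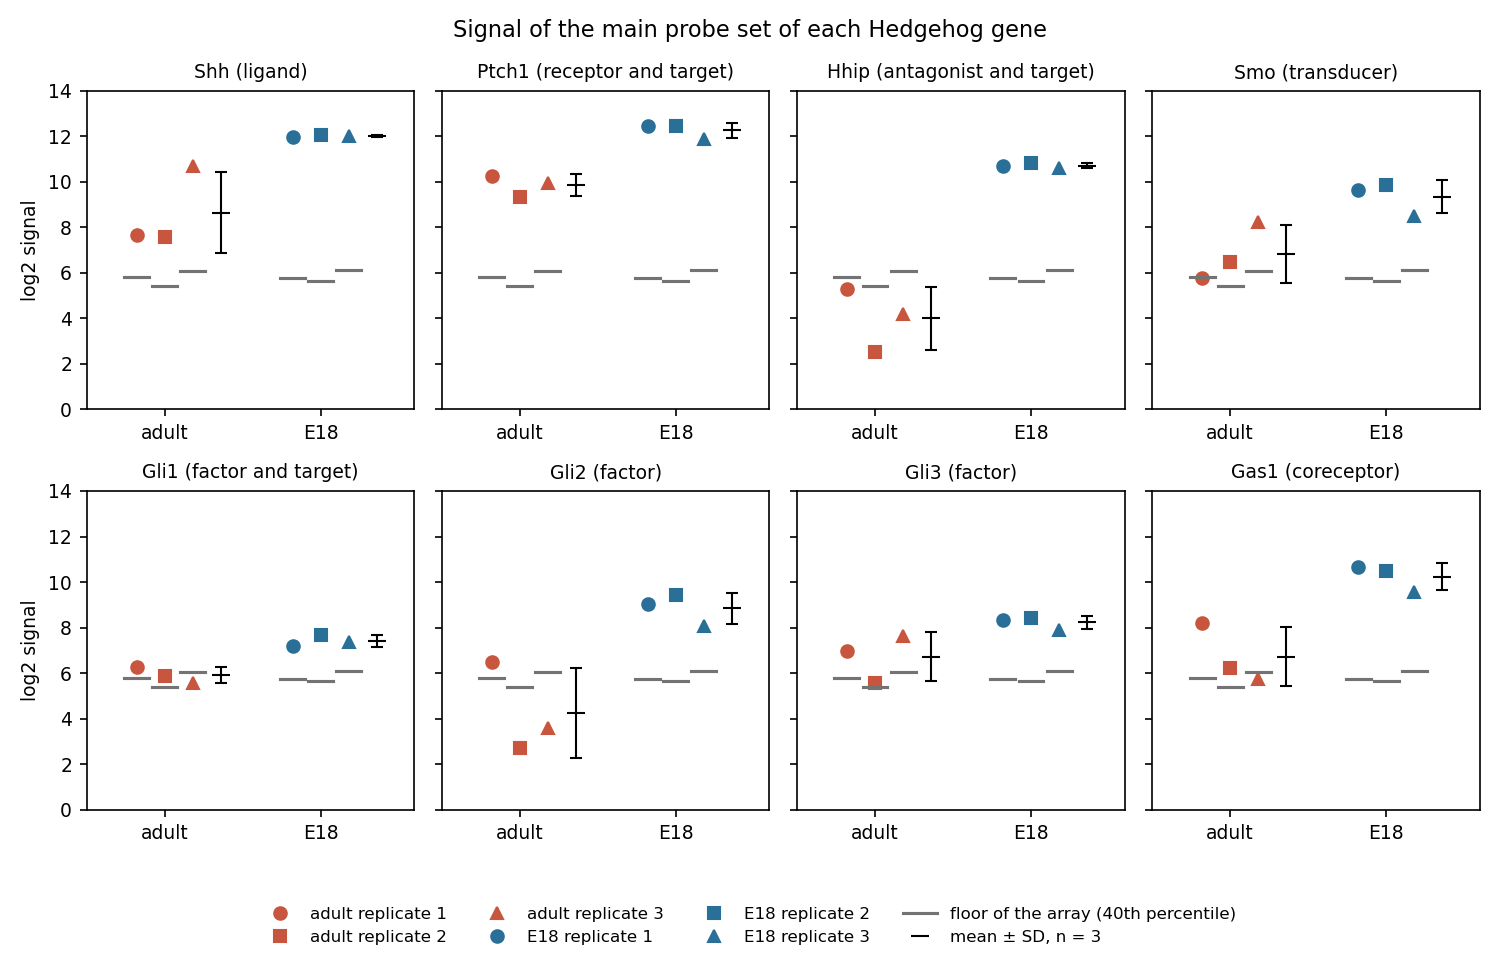
Log2 signal of the main probe set of each of the 8 genes on every array, with adult arrays on the left and E18 arrays on the right of each panel, grey ticks for the floor of each array, and black marks for the mean ± SD (n = 3). In all 8 panels the adult points lie below the E18 points, Hhip is under the floor on the 3 adult arrays, and Shh is high in adult replicate 3.

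The ligand Shh was lower and uneven in the adult cells, and bright and nearly constant in the fetal cells. Its log2 signals were 7.65, 7.56 and 10.67 in adult replicates 1, 2 and 3, and 11.98, 12.05 and 11.99 in E18 replicates 1, 2 and 3. Adult replicate 3 thus stood 3.06 above the mean of the other adult arrays, yet the groups did not overlap. The difference was -3.38 (SE 0.78, limma adjusted p = 0.0498), or 10.4-fold lower (8.63 ± 1.77 in adult and 12.01 ± 0.04 in E18 arrays, mean ± SD, n = 3). This call lies at the threshold: the adjusted p was 0.142 without adult replicate 1, 0.168 without adult replicate 2, and 0.119 to 0.176 without 1 of the E18 arrays. Replicates 1 and 2 alone differed by -4.41 (limma adjusted p = 0.00492), in a fit that called 2996 genes, and the third replicates by -1.32.

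Ptch1, the receptor and a target of the pathway, was 5.35-fold lower in the adult cells but remained well above the floor. It stood at 10.25, 9.31 and 9.95 in adult replicates 1, 2 and 3, and at 12.43, 12.46 and 11.88 in E18 replicates 1, 2 and 3. Unlike Shh, it was not high in adult replicate 3, which lay between the other adult arrays. The difference was -2.42 (SE 0.35, limma adjusted p = 0.0113), with means of 9.84 ± 0.48 in adult and 12.26 ± 0.33 in E18 arrays. Replicates 1 and 2 differed by -2.66, the third replicates by -1.93, and the call was lost when E18 replicate 1 (adjusted p = 0.0854) or E18 replicate 2 (0.0818) was left out.

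Hhip, the secreted and membrane-bound antagonist that binds the ligand, was the member with the largest difference. Its signals were 5.29, 2.50 and 4.17 in adult replicates 1, 2 and 3, under the floor on each, and 10.68, 10.82 and 10.59 in E18 replicates 1, 2 and 3. Since the adult level has only an upper bound, Hhip was at least 30.8-fold lower in the adult arrays (measured difference -6.71, SE 0.68, limma adjusted p = 0.00459). The difference was -4.94 when lower values were raised to the floor. Replicates 1 and 2 differed by -6.86, the third replicates by -6.41, and Hhip was called in all 18 alternative settings run.

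Gas1, a cell-surface coreceptor that helps Shh bind Ptch1, was 11.4-fold lower in the adult cells. It had signals of 8.21, 6.20 and 5.76 in adult replicates 1, 2 and 3, the last under the floor, and of 10.66, 10.47 and 9.58 in E18 replicates 1, 2 and 3. The adult arrays differed among themselves by more than the E18 arrays did, with SDs of 1.31 and 0.58, and the groups did not overlap. The difference was -3.51 (SE 0.67, limma adjusted p = 0.0267), against -3.36 over replicates 1 and 2 and -3.82 between the third replicates. The adjusted p was 0.109 without adult replicate 2, 0.0551 to 0.135 without 1 of the E18 arrays and 0.0546 after quantile normalization.

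Smo, the membrane protein that passes the signal inward, did not pass over all arrays. Its signals were 5.75, 6.47 and 8.21 in adult replicates 1, 2 and 3, and 9.62, 9.86 and 8.51 in E18 replicates 1, 2 and 3. The third replicates lay close together, at a difference of -0.30. Replicates 1 and 2 differed by -3.63 (limma adjusted p = 0.00528), in a fit that called 2996 genes. The probe set is of a type that can match more than 1 transcript. Over all 6 arrays the difference was -2.52 (95% interval -4.11 to -0.93, limma adjusted p = 0.0794), and leaving out adult replicate 3 gave -3.22 (adjusted p = 0.0056).

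Of the Gli factors, Gli2 fell and Gli1 and Gli3 did not pass. Gli2, the main activator of the response, had signals of 6.49, 2.70 and 3.61 in adult replicates 1, 2 and 3, at or above the floor only in replicate 1, and of 9.03, 9.41 and 8.08 in E18 replicates 1, 2 and 3. Its measured difference was -4.58 (SE 0.96, limma adjusted p = 0.0356), and -2.86 (adjusted p = 0.0153) when values below the floor were raised to it. Replicates 1 and 2 differed by -4.63, the third replicates by -4.47, and the adjusted p was 0.111 without adult replicate 2 and 0.0762 to 0.165 without 1 of the E18 arrays, and 0.0571 in replicates 1 and 2 alone.

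Gli1, the factor whose own transcription follows the signal, was close to the floor in the adult arrays, at 6.28, 5.86 and 5.57 in replicates 1, 2 and 3, and stood at 7.18, 7.68 and 7.35 in E18 replicates 1, 2 and 3. The groups did not overlap, with a difference of -1.50 (95% interval -2.47 to -0.53, limma adjusted p = 0.0848). Replicates 1 and 2 differed by -1.36, the third replicates by -1.79. When values below the floor were raised to it the adjusted p was 0.0484, and without adult replicate 3 it was 0.0438.

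Gli3, mainly a repressor in the absence of ligand, had signals of 6.96, 5.55 and 7.64 in adult replicates 1, 2 and 3, and of 8.35, 8.43 and 7.90 in E18 replicates 1, 2 and 3. Adult replicate 3 differed from E18 replicate 3 by -0.26, the smallest gap between same-numbered arrays among the 8 genes. The difference over all arrays was -1.51 (95% interval -2.84 to -0.19, limma adjusted p = 0.177), and leaving out adult replicate 3 gave -1.97 (adjusted p = 0.0283).

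Probe sets of 1 gene target different stretches of its transcripts, and 14 of the 21 probe sets reached the floor on at least 3 arrays. All 14 were at or above the floor on all 3 E18 arrays and so passed this filter through the E18 group alone, whatever their adult level. All 14 had lower means in the adult arrays, as had 59.0% of genes tested with 1 probe set each. Of the 14, 13 did not overlap between groups, and 8 were called lower when every probe set was tested by itself. Probe sets of the same gene are not independent of each other. Of all 23683 probe sets tested, 17.6% did not overlap with the adult arrays lower and 3.50% were called lower. The member probe set that overlapped was the other tested probe set of Gli3 (-2.91, limma adjusted p = 0.152). It stood at 5.07, 3.09 and 7.19 in adult and 8.33, 8.60 and 7.15 in E18 replicates 1, 2 and 3. The 4 probe sets of Hhip were all called, with measured differences of -7.35 to -4.69, and those under the floor on all adult arrays gave folds of at least 17.8 and at least 30.8. Both tested probe sets of Gas1 were called, at -3.51 and -2.55 (limma adjusted p = 0.0263 and 0.0163). The main probe set of Shh had an adjusted p of 0.0524 in this fit, just over the threshold. Of the 7 probe sets not tested, all were under the floor on at least 4 arrays, and 1 of them, for Ptch1, had a higher adult mean (5.0 in adult and 3.72 in E18 arrays). With the mean of all probe sets of a gene as its value, these dim probe sets enter, and 2 of the 8 genes, Hhip and Gli2, were called. The difference of Ptch1 was then -0.76 (adjusted p = 0.416) and that of Shh -1.77 (0.0918).

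**Figure D2:**
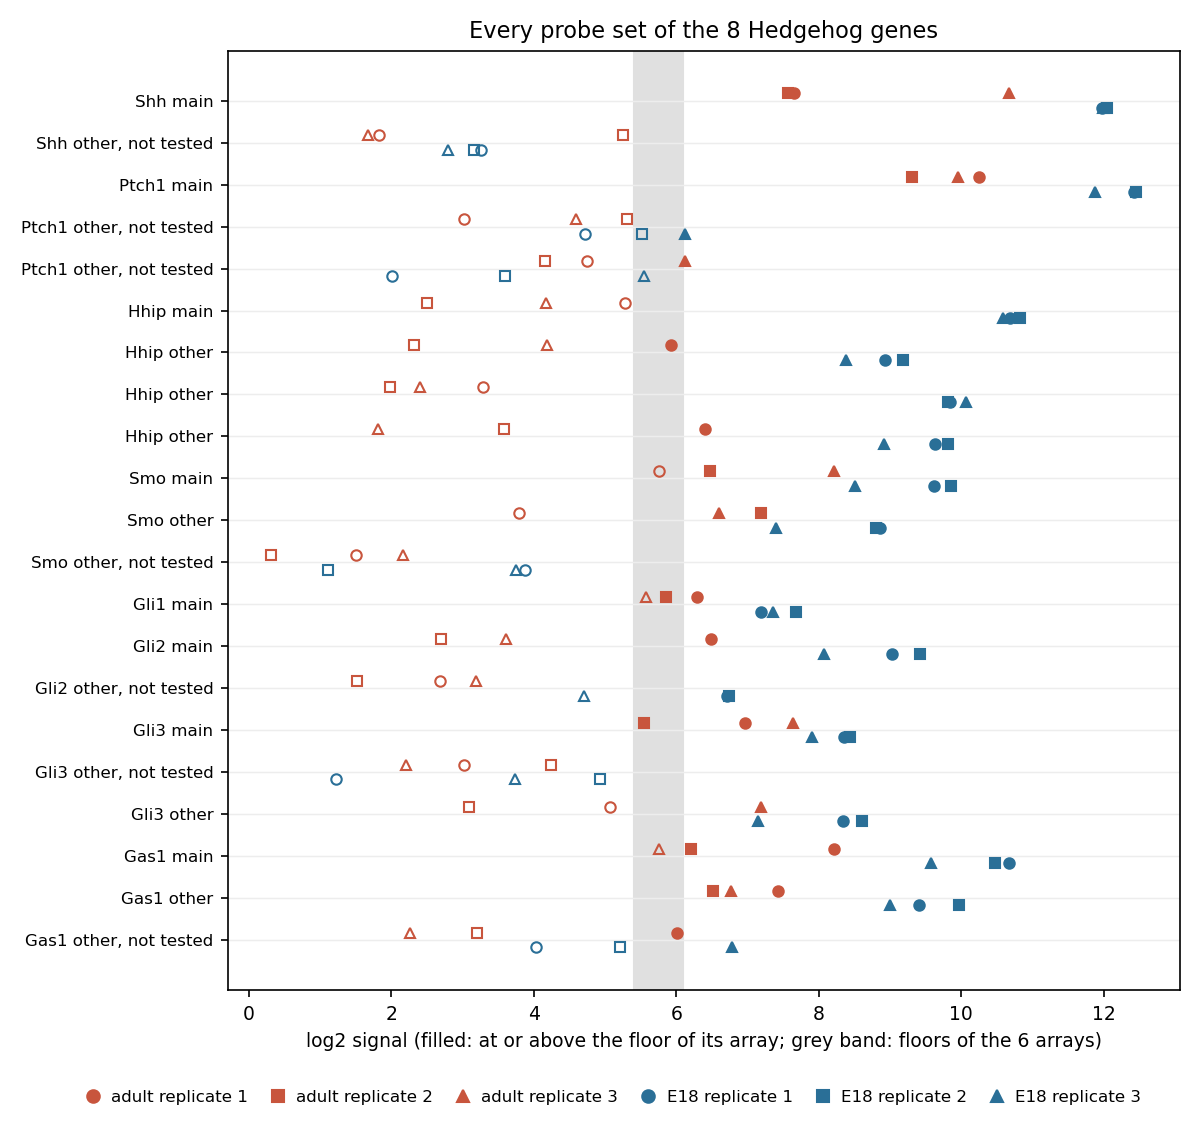
Log2 signal of each of the 21 probe sets of the 8 genes, with adult arrays above E18 arrays in each row, replicates by marker shape, filled markers at or above the floor of their array, and a grey band from the lowest to the highest floor. The 4 Hhip rows show adult and E18 points far apart, and the 7 rows not tested lie mostly under the floor.

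The 8 genes differed in which adult array was high. Adult replicate 3 stood above the mean of adult replicates 1 and 2 by 3.06 for Shh, 2.10 for Smo and 1.38 for Gli3. It differed from that mean by 0.28 for Hhip and 0.17 for Ptch1, and by -0.50 for Gli1, -0.98 for Gli2 and -1.45 for Gas1. By the same measure the 10 epithelial markers had a median of 3.10 and the 12 mesenchymal markers one of -1.75. As departures from the mean of each gene over 6 arrays, the epithelial markers had medians of -1.81, -1.83 and 1.54 in adult replicates 1, 2 and 3, and of 0.71, 0.75 and 0.92 in E18 replicates 1, 2 and 3. The leukocyte markers had medians of 2.05, 2.41 and 0.38 in the adult arrays and of -1.84, -2.22 and -0.21 in the E18 arrays. Shh departed by -2.66, -2.76 and 0.35 in the adult arrays and by 1.66, 1.73 and 1.68 in the E18 arrays. The mesenchymal markers had medians of -0.71, -2.30 and -3.15 in the adult arrays and of 2.26, 2.23 and 1.52 in the E18 arrays. Of the other 7 genes, Gli1 and Gas1 had the same order of the adult arrays as these medians, with departures of -0.37, -0.79 and -1.09 for Gli1 and -0.27, -2.28 and -2.72 for Gas1. Ptch1, Hhip and Gli2 were lowest in adult replicate 2, at -1.74, -4.84 and -3.86. Smo and Gli3 had their highest adult value in replicate 3, at 0.14 and 0.17, where the mesenchymal markers were lowest.

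The 12 mesenchymal markers had a median difference of -3.86, with 9 lower, 0 higher and 3 not called, and 1 was under the floor on all adult arrays. The 9 epithelial markers tested had a median of -1.65, with 1 lower, the claudin Cldn18 at -2.99, 0 higher and 8 not called, and this median was -2.89 over replicates 1 and 2 and 0.58 between the third replicates. Endothelial markers, with 3 of 8 lower and a median of -2.88, and mesothelial markers, with 3 of 5 lower and a median of -2.46, also had lower medians in the adult arrays. Type I cell markers had 4 of 7 lower and a median of -2.27. Type II cell markers had 1 of 7 lower and a median of -0.05. Over all genes tested, 4.57% were lower and 1.41% higher, with a median of -0.17. Leukocyte markers had 2 of 8 higher, Cd2 and Klrd1, and a median of 3.53, which was 4.74 over replicates 1 and 2 and 0.92 between the third replicates. The part of these cell markers in the differences of the Hedgehog genes was not tested.

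**Figure D3:**
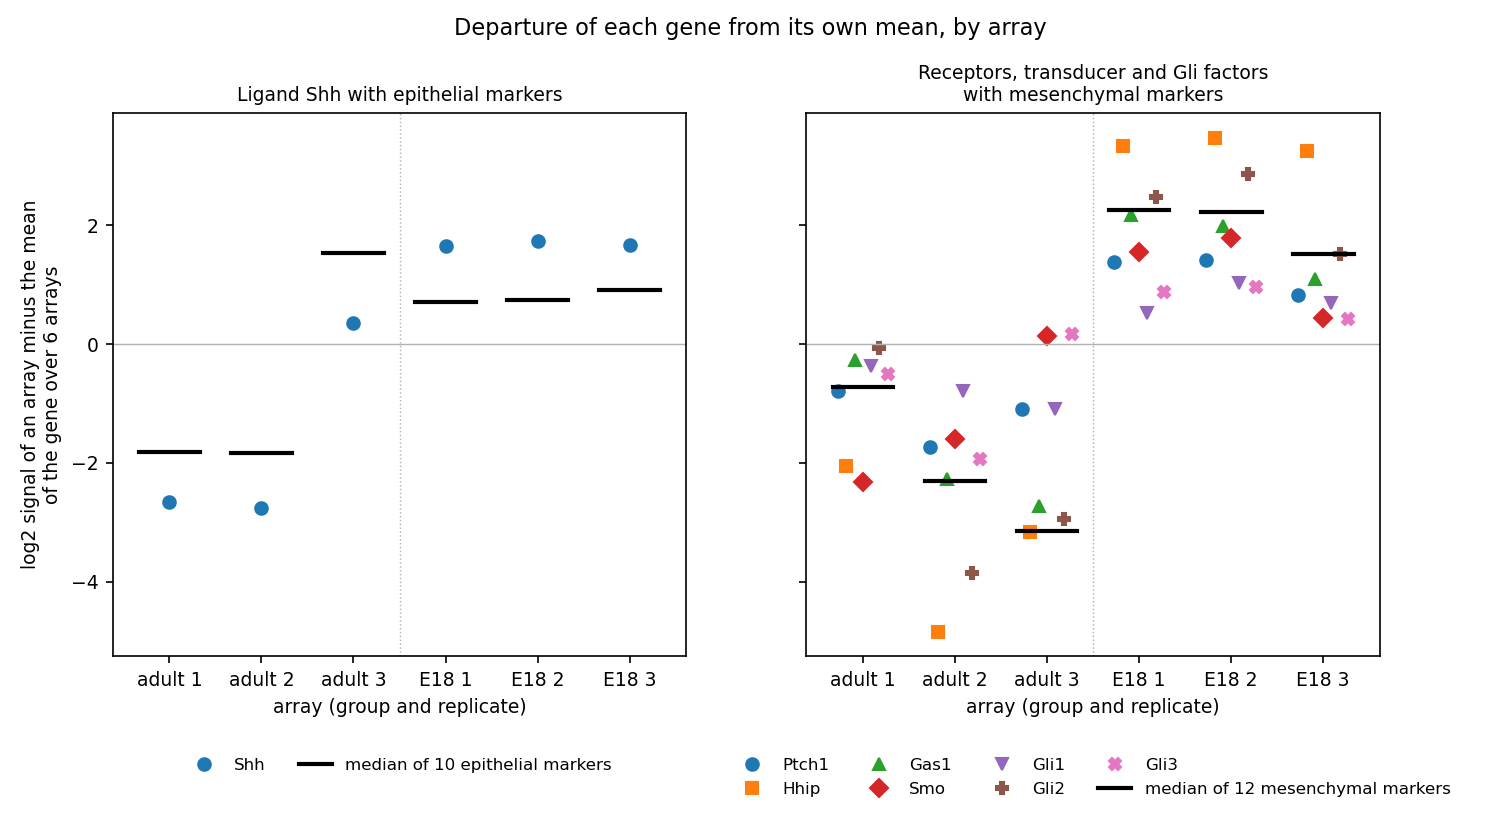
Departure of each gene from its own mean over the 6 arrays, in log2 units, for Shh on the left and the other 7 genes on the right, with black bars for the median of 10 epithelial markers (left) and 12 mesenchymal markers (right). Shh and the epithelial bar are both high in adult replicate 3 relative to the other adult arrays, while the mesenchymal bar has its lowest value there, -3.15.

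Across the 6 arrays Ptch1 and Hhip had a Pearson correlation of 0.991 and Gli2 and Gas1 one of 0.982, while Shh correlated at 0.95 with Smo, 0.851 with Ptch1 and 0.650 with Gas1. These values describe 6 arrays that fall into 2 groups, and the group difference is part of each. By the same measure the genes most like Shh were Cavin2, a caveolar coat protein (0.9998), the adhesion receptor Nectin2 (0.998) and the tight junction scaffold Tjp1 (0.997). Cavin2 stood at 9.55, 9.50 and 11.80 in adult replicates 1, 2 and 3, and at 12.88, 12.91 and 12.90 in E18 replicates 1, 2 and 3. The genes most like Ptch1 were the zinc finger gene Zfp521 (0.999), the proprotein convertase Pcsk5 (0.998) and the adaptor Grb10 (0.998). Grb10 stood at 8.68, 6.28 and 7.90 in the adult arrays and 12.79, 12.84 and 11.90 in the E18 arrays. A correlation of 0.95 or more was reached with Shh by 423 and with Ptch1 by 435 of 13328 other genes.

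Of 32 other genes of the pathway, 29 were on the array and 25 were tested, of which 5 fell, 1 rose and 19 did not pass in the adult arrays, with a median of -1.51. Ligand genes and genes of ligand release had 0 of 4 called by limma, 2 of them at an unadjusted p under 0.05, with differences of -2.41 to -0.05. Among receptors and coreceptors 2 of 3 fell. Boc, a coreceptor of Ptch1, stood at 6.73, 6.19 and 6.56 in adult replicates 1, 2 and 3, and at 8.81, 8.69 and 8.38 in E18 replicates 1, 2 and 3 (difference -2.13, SE 0.36, limma adjusted p = 0.0183). Gpc3, a glypican that competes with Ptch1 for the ligand, stood at 6.77, 5.45 and 6.07 in the adult arrays and 10.96, 11.13 and 10.05 in the E18 arrays (-4.62, SE 0.47, limma adjusted p = 0.00459). Both were lower in each adult array than in any E18 array, as were 18.8% of genes tested, and Gpc3 was called in all 18 alternative settings. Boc lost its call when adult replicate 2 (adjusted p = 0.063), E18 replicate 1 (0.141) or E18 replicate 2 (0.13) was left out, and with the mean of all its probe sets (0.154).

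Of the genes that relay the signal inside the cell 0 of 7 were called, 1 of them at an unadjusted p under 0.05, with differences of -2.47 to 0.78 and a median of -0.83. Genes of the primary cilium, the organelle in which Smo acts, had 0 of 3 called and 0 at an unadjusted p under 0.05, with differences of -1.28 to 0.36. Their median difference was -2.0 over replicates 1 and 2 and 2.40 between the third replicates, and adult replicate 3 was 3.09 above the other adult arrays.

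Target genes had 3 of 8 lower and 1 higher, with a median of -2.77, against 4.57%, 1.41% and -0.17 over all genes tested. Foxf1, a forkhead factor of the lung mesenchyme, stood at 6.71, 6.76 and 6.67 in adult replicates 1, 2 and 3, and at 10.23, 10.42 and 8.34 in E18 replicates 1, 2 and 3 (-2.95, SE 0.57, limma adjusted p = 0.0279). Tbx2, a T-box factor, stood at 7.68, 6.38 and 3.95 in the adult arrays and 11.30, 11.50 and 9.75 in the E18 arrays (-4.85, SE 0.94, limma adjusted p = 0.0279). Both were lowest among E18 arrays in replicate 3, and neither overlapped between groups, as for 18.8% of genes tested with the adult arrays lower. Mycn, a Myc family factor and Hedgehog target of the mouse cerebellum, stood at 3.81, 3.67 and 5.74 in the adult arrays, under the floor on each, and at 9.21, 9.24 and 9.39 in the E18 arrays, which is at least 11.5-fold lower (measured difference -4.87, SE 0.61, limma adjusted p = 0.00868). Ccnd2, a G1 cyclin that is used in many cell types, went the other way, with 12.29, 12.67 and 12.59 in the adult arrays and 10.87, 11.10 and 11.09 in the E18 arrays (1.50, SE 0.26, limma adjusted p = 0.0213). Of these 4 genes 0 were called by limma when E18 replicate 1 (adjusted p = 0.0581 to 0.152) or E18 replicate 2 (0.0568 to 0.142) was left out. Leaving out adult replicate 2 ended the calls of Foxf1, Tbx2 and Ccnd2 (0.0777 to 0.102), adult replicate 1 that of Foxf1 (0.0804), E18 replicate 3 those of Tbx2 and Ccnd2 (0.0529 and 0.0531), and quantile normalization those of Foxf1 and Tbx2 (0.0515 and 0.0533). With the mean of all probe sets of a gene Mycn had a difference of -1.54 (adjusted p = 0.206) and Foxf1 one of -2.18 (0.0891), and neither was called. With E18 replicates 1 and 2 averaged 0 of the 4 were called (0.0582 to 0.144).

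**Figure D4:**
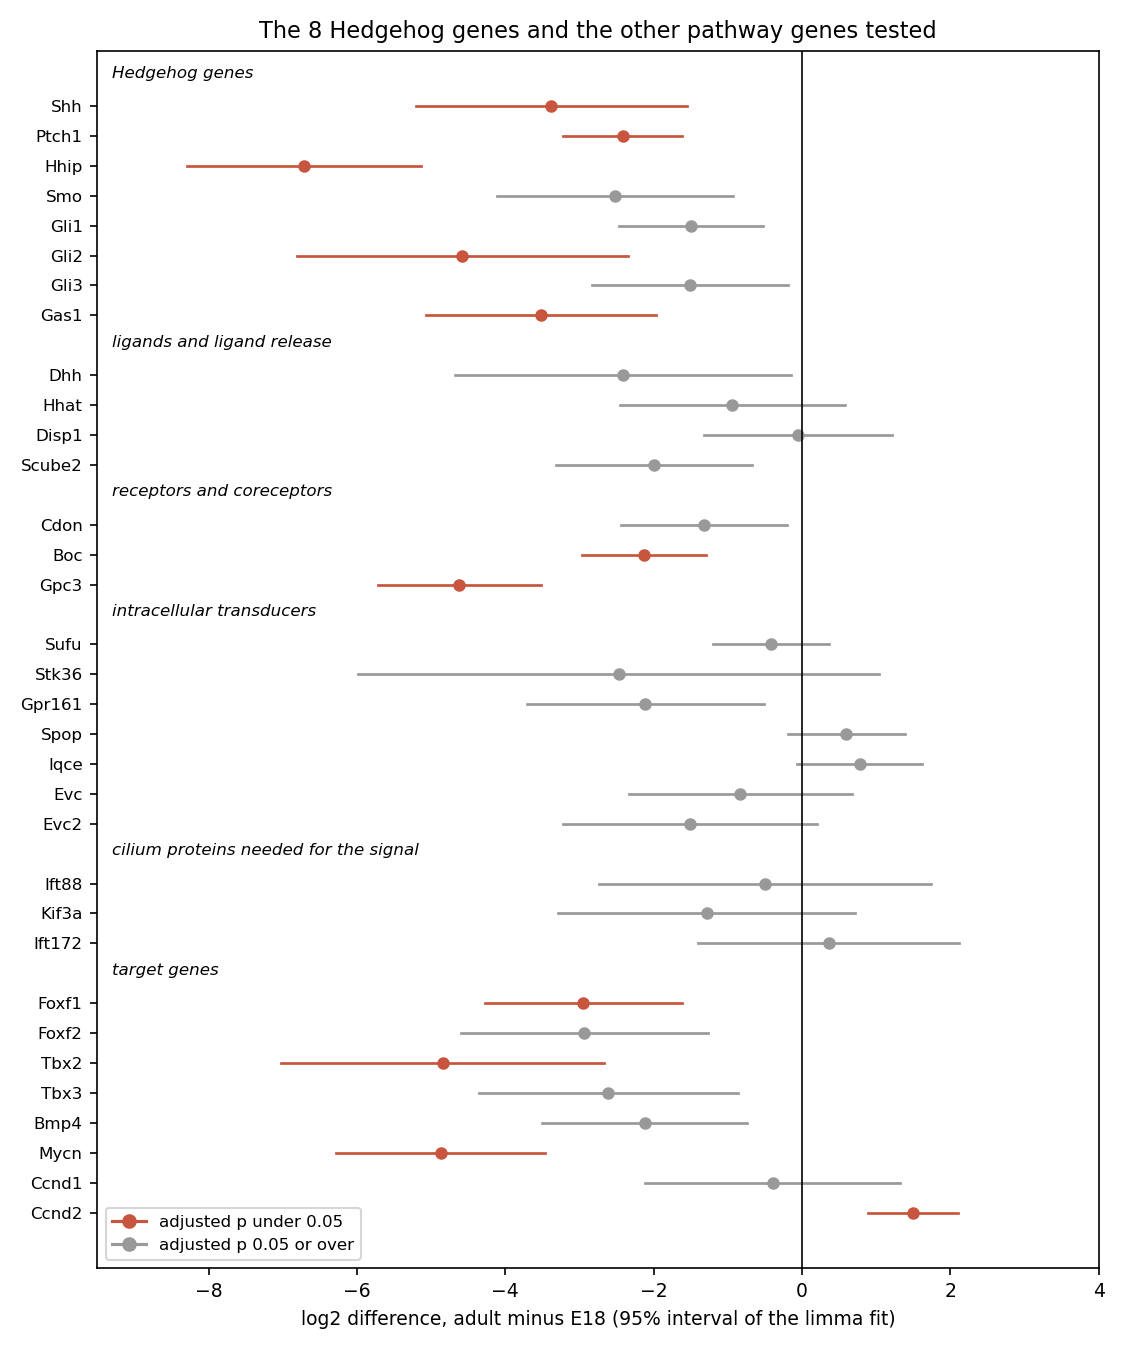
Log2 difference (adult minus E18) with its 95% interval from the limma fit for the 8 Hedgehog genes and the 25 other pathway genes tested, by role, with genes at an adjusted p under 0.05 in red and the others in grey. All 8 Hedgehog genes lie left of 0, and Ccnd2, at 1.50, is the red point to the right of it.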

How the data were processed

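The authors deposited 1 linear signal intensity per probe set and array, for which the submitters' processing notes name MAS5 and Affymetrix Expression Console, after 2-cycle amplification per the labels' protocols. The deposited values were all above 0 and had a mean near 500 on each array after trimming of 2% per end (500.003 to 500.004), so they were log2 transformed with no pseudocount or further scaling. Of 45101 probe sets, 34958 had exactly 1 symbol in the platform's gene table, 932 several and 9211 none. Each of 18194 genes was represented by its brightest probe set on average over the arrays, and 13336 genes at or above the 40th percentile of an array on at least 3 arrays were tested. The test was lmFit and eBayes of limma 3.58.1, run in R 4.3.3 (intensity trend, two-sided, Benjamini-Hochberg), checked on simulated data. Folds of genes under the floor on all arrays of a group are bounds against the floor. The labels call the arrays biological replicates, and their number limits the precision. The Hedgehog genes, pathway list and marker lists were chosen with earlier results of these data known. Named genes are the 8 Hedgehog genes, pathway genes that passed, the 3 genes most like Shh and Ptch1, and listed markers. Alternatives covered scaling, filter, floor, pseudocount, probe set choice, variance trend, replicate block, replicates numbered 3 as a block or left out, E18 replicates 1 and 2 averaged, and each array left out. No sample was left out of the main comparison.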

Additional observations from a re-analysis of the deposited data

How the results depend on the processing

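Directions of the 8 Hedgehog genes and the 6 other called pathway genes were the same in all 18 alternative settings. For most settings this was fixed beforehand and is no check. Arrays of these genes did not overlap between groups, so fits with arrays left out or averaged could not reverse a direction. Filter, variance trend and block settings left the differences unchanged. Of the 252 values of these genes over the settings, 190 kept their side of the threshold, 56 lost the call and 6 gained it. The calls thus depended on the settings. The count of Hedgehog genes called lower, 5, ranged from 1 to 8 with 1 array left out, and was 1 with E18 replicates 1 and 2 averaged and 2 with the mean of all probe sets of a gene. The count over all genes, 798, ranged from 66 to 2770 with 1 array left out, and was 63 with E18 replicates 1 and 2 averaged and 2996 in replicates 1 and 2 alone. Of the Hedgehog probe sets, 8 were called lower when each was tested, 2 to 12 with 1 array left out, and 5 with 1 probe set per gene. Deviations from the group means correlated at 0.0364, -0.140 and -0.0579 for replicate numbers 1, 2 and 3. By these deviations 0 of 3 adult arrays correlated best with the E18 array of their own number. Over all pairs of an adult and an E18 array the correlations were -0.140 to 0.153. Deviations within a group of 3 depend on each other, so these values cannot decide whether arrays of the same number were processed together. Poly-A spike-in medians were 14.38 and 13.97 in the adult and E18 arrays numbered 3, against 6.24 to 9.53 in the other arrays. With the replicate block 492 genes and 4 Hedgehog genes were called, Shh being lost (adjusted p = 0.0576), as were the pathway genes Boc (0.0568) and Ccnd2 (0.0604). Why the calls differed between settings was not tested. The 3 arrays per group and the low adult signals of Hhip, Gli2, Gli1, Gas1 and Smo, which had 1 or more adult arrays under the floor, limit the sizes of these differences.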
